A study of Caenorhabditis elegans with 2 samples.

Results

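The neighbourhoods of small nucleolar RNA (snoRNA) and small nuclear RNA (snRNA) genes of Caenorhabditis elegans were scored for peaks of PAX-3, a transcription factor with a paired domain, in larvae of the first stage. All genes that Ensembl release 115 annotates as snoRNA or snRNA on the nuclear chromosomes of assembly WBcel235 (ce11) were taken, the spliced-leader (sls) genes included, and each was extended by 300 bp on both sides. The rule gave 475 of 46890 annotated nuclear genes, 346 snoRNA and 129 snRNA genes, and used no measured value. The snRNA genes comprised 12 SL1 genes (sls-1), 18 SL2 genes (sls-2) and 99 others.

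Chromatin immunoprecipitation with an anti-GFP antibody was followed by sequencing (ChIP-seq) on whole starved L1 larvae, collected after bleaching at an age of 6 h. Both samples came from strain OP190, with the genotype unc-119(ed3) III and the transgene wgIs190, and the larvae of each were of pooled sexes. In every sample PAX-3 came with a GFP-FLAG tag at its C-terminus, made from an integrated transgene and precipitated through that tag. The labels give 2 biological replicates of 1 group, with no other condition or untagged strain and no record of separate cultures, so the spread between replicates may be partly technical.

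Small nuclear RNAs form the core of the spliceosome, and snoRNAs guide the chemical modification of ribosomal and other RNAs. Box C/D snoRNAs direct methylation and box H/ACA snoRNAs direct the change of uridine to pseudouridine. In nematodes the spliced leaders SL1 and SL2 are short RNAs whose 5′ ends are joined to messenger RNAs, and SL2 is used mainly for downstream genes of operons. Many snRNA genes have a promoter just upstream of the transcribed part that is bound by the SNAPc complex, whereas some small RNA genes use internal or upstream boxes of the kind found in tRNA genes. Intronic snoRNAs can be cut out of the host's spliced intron or come from a promoter of their own.

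The sequences that carry the pattern described here are those just upstream of the genes, where most summits lay. For each gene below, the 100 bases upstream are in lower case and the annotated gene is in capitals, read 5′ to 3′ on the strand of the gene from the RefSeq copy of the assembly. A choice of genes with strong peaks in each class is shown, not all of the strongest. The free-standing snoRNA gene of highest signal, W06H8.17, is not shown. Its summit lay 196 bp upstream, beyond the 100 bases printed for each gene. The gene sls-2.3, which held no summit, is shown beside its near copies.
sls-2.1 (SL2, free-standing, chrII:5844765-5844974, plus strand): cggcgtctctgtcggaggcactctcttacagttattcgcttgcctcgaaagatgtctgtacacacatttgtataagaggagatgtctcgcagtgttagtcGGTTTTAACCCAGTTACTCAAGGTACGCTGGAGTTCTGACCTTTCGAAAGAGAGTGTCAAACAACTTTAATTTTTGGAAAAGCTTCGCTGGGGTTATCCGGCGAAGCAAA
sls-2.2 (SL2, free-standing, chrII:5543498-5543707, plus strand): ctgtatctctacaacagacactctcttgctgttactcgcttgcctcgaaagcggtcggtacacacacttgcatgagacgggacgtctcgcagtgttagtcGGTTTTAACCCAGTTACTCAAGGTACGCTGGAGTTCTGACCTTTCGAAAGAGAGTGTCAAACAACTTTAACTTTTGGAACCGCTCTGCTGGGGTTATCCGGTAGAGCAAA
sls-2.3 (SL2, free-standing, no summit, chrII:5544164-5544373, minus strand): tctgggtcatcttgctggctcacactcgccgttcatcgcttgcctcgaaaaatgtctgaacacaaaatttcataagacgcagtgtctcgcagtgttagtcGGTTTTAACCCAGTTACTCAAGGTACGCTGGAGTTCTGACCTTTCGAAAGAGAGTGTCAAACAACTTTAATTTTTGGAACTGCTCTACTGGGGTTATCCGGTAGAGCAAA
sls-2.8 (SL2, free-standing, chrIII:12250365-12250575, plus strand): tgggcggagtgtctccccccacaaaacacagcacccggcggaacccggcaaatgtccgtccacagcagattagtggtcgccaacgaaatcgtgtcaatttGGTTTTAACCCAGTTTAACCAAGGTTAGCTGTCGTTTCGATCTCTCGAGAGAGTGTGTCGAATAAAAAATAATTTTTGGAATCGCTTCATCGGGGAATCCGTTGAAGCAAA
T11F9.15 (snRNA, free-standing, chrV:11980018-11980261, plus strand): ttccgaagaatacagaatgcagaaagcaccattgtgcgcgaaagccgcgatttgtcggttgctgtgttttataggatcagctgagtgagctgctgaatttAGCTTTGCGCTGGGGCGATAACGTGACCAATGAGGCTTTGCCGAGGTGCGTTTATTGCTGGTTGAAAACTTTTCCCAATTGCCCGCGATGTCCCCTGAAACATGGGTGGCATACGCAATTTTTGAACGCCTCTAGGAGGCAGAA
sup-6 (U1-type snRNA, intron of F58G1.7, chrII:12944803-12945067, minus strand): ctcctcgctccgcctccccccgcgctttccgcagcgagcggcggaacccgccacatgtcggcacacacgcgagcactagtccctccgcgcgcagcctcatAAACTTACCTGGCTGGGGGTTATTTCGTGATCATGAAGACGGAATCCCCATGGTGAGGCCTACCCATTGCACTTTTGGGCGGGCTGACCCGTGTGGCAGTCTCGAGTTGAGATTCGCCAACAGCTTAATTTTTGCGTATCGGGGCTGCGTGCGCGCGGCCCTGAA
C51F7.3 (snoRNA, intron of frm-7, chrV:12303608-12303783, plus strand): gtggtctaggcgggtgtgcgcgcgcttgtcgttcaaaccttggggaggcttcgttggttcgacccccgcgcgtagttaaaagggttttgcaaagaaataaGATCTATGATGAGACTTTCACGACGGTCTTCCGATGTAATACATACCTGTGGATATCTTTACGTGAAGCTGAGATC
ZK994.7 (snoRNA, intron of pxn-1, chrV:8500479-8500645, plus strand): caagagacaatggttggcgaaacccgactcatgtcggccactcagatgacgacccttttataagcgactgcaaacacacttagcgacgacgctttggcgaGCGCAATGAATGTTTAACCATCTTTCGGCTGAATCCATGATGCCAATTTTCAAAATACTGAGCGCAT
Y53F4B.47 (snoRNA, free-standing, chrII:15025814-15025993, minus strand): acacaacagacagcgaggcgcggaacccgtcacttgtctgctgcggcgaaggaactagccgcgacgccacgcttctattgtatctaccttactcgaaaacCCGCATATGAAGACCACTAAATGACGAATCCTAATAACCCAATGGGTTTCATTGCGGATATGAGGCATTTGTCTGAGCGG
Y75B12B.12 (snoRNA, free-standing, chrV:15190976-15191193, minus strand): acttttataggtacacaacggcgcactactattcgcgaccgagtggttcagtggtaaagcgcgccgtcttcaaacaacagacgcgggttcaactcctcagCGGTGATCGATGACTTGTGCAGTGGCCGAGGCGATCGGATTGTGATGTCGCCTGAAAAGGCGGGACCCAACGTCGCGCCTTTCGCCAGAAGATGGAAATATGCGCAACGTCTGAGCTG

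Peaks were represented by their summits. The authors thresholded 1 list of peaks by irreproducible discovery rate (IDR), and they deposited relaxed lists of 30000 peaks for the pooled data and for each replicate. The IDR list holds exactly the strongest peaks of the pooled list, so an equally long list of the strongest peaks of each replicate, called its highest peaks here, was used to compare the replicates. Peak signal is the authors' deposited value. It is compared only within a list, and sequencing depth is unknown because the lists hold no read counts. The larvae were processed whole, so each peak is a mixture over all their cells.

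An IDR summit lay in the windows of 79 of the 475 genes (16.6%, 95% Wilson interval 13.6 to 20.2). Tiles of the genome of the median window length, 725 bp, held an IDR summit in 1.51% of cases. The replicates gave nearly the same count when scored on their own, with 74 genes at the highest peaks of replicate 1 (1.5% of tiles) and 84 at those of replicate 2 (1.51% of tiles). In the relaxed pooled list 209 genes held a summit, beside 20% of tiles. The intervals cover counting error only, and genes that share a window or a sequence are not independent.

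The share was above those of most other gene classes scored the same way. Windows of the same length centred on protein-coding gene starts held an IDR summit in 4.97% of cases, and windows centred on introns of at least 100 bp in 0.832%. Among other short or noncoding genes with 300 bp on each side, the share was 12.9% for tRNA genes, 7.22% for lincRNA genes, 5.35% for genes annotated only as ncRNA, 3.45% for miRNA genes, 0.987% for pseudogenes and 0.267% for piRNA genes. The tRNA genes, which RNA polymerase III transcribes, were thus the class nearest to the snoRNA and snRNA genes.

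By kind, 64 of 346 snoRNA genes (18.5%, 14.8 to 22.9) and 15 of 129 snRNA genes (11.6%, 7.17 to 18.3) held an IDR summit. The SL2 genes had 5 of 18 (27.8%, 12.5 to 50.9) and the other snRNA genes 10 of 99 (10.1%, 5.58 to 17.6). The SL1 genes had 0 of 12, which allows a share of up to 25%. By chromosome the counts were 15 of 90 genes on I, 19 of 87 on II, 13 of 67 on III, 13 of 100 on IV, 16 of 95 on V and 3 of 36 on X.

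**Figure D1:**
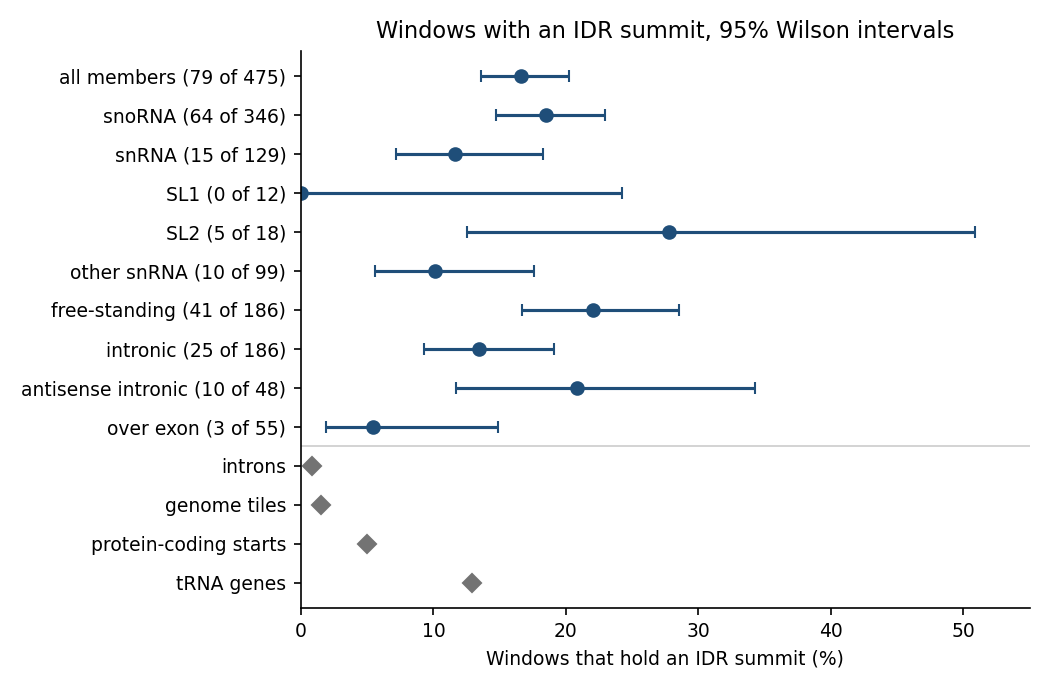
Share of windows with an IDR summit, in percent, for all members and by class (circles with 95% Wilson intervals, counts in the labels), beside the background shares of introns, genome tiles, protein-coding gene starts and tRNA genes (diamonds). Free-standing genes stood at 22.04%, intronic genes at 13.4% and the SL1 genes at 0, while genome tiles stood at 1.51%.

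The 79 genes shared 76 strongest summits, because some genes lie within one window. In all, 85 IDR summits (3.97% of the list) lay in a member window. The median signal of the 76 was 200.6, beside 178.5 over all IDR peaks, and 6 of them were among the 100 strongest IDR peaks. For 61 of the 79 genes (77.2%) the strongest summit lay within 100 bp of one among the highest peaks of both replicates, beside 68.0% of all IDR peaks. Of the others, 7 were matched in replicate 1 only and 11 in replicate 2 only. Both relaxed replicate lists had a summit in all 79 windows. Spearman's rho between the replicates' signals was 0.742 over these 79 genes, a description across genes of which some share a peak.

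**Figure D2:**
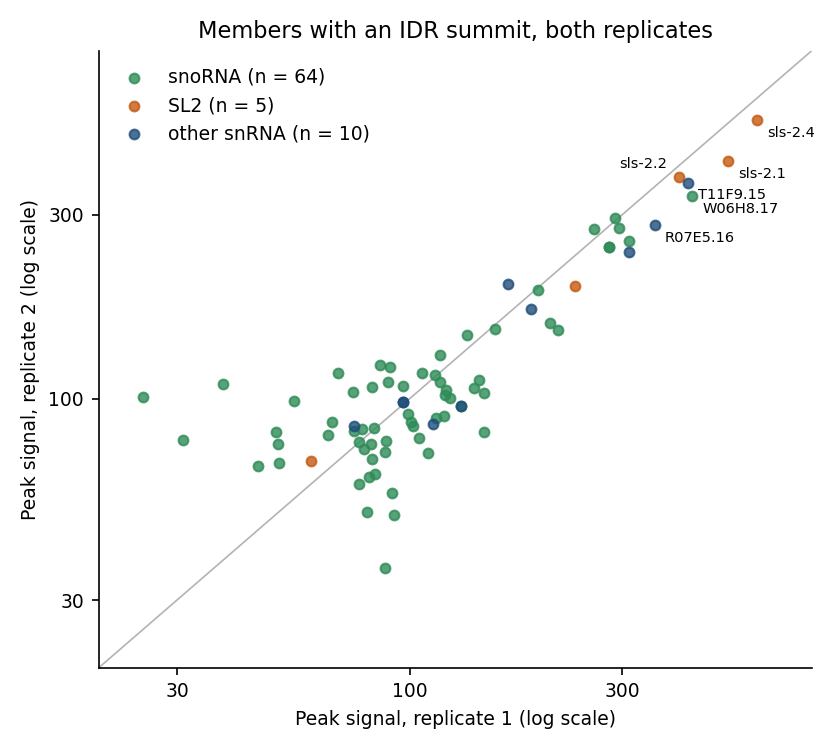
Highest peak signal in each window in replicate 1 (horizontal, log scale) against replicate 2 (vertical, log scale) for the 79 genes with an IDR summit, coloured by kind. The line, where both values are equal, is only a guide, because signals are compared within a list. The genes of highest signal, among them sls-2.4, sls-2.1 and T11F9.15, lie near the line, and the spread is wider among genes of low signal.

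The summits lay close to the 5′ ends of the genes. Of the 79 genes, 46 had their strongest summit 1 to 100 bp upstream of the 5′ end, 15 inside the gene, 9 farther upstream and 9 downstream. The median position was 25 bp upstream. Over all 475 genes, 48 (10.1%, 7.71 to 13.1) had any IDR summit in the 100 bp upstream, and 50 and 46 had one there among the highest peaks of replicates 1 and 2. The same stretch held an IDR summit for 0.971% of protein-coding genes, 4.9% of tRNA genes and 0.85% of ncRNA genes. Promoter windows of protein-coding genes, which span 1000 bp before and 200 bp after the gene start, held 32 of the 76 summits (42.1%), beside 50.1% of all IDR summits. The other summits, at 45 of the 79 genes, lay in no such window.

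Genes were then split by where they lie. Intronic genes lie inside an intron of a protein-coding gene on the same strand, and free-standing genes outside the span of any protein-coding gene. The split gave 186 genes of each class, with 48 antisense to an intron and 55 over an exon. An IDR summit was present at 41 free-standing genes (22.04%, 16.7 to 28.53) and at 25 intronic genes (13.4%, 9.27 to 19.1), a difference of −8.60 percentage points (95% interval −16.3 to −0.817, counting error only). The highest peaks of replicate 1 gave 36 and 25 genes, and those of replicate 2 gave 42 and 25. The interval of the difference included 0 for replicate 1 (−13.4 to 1.65), and with 1000 bp on each side the difference was 0 points. Antisense intronic genes had 10 of 48 (20.8%, 11.7 to 34.3) and genes over an exon 3 of 55 (5.45%, 1.87 to 14.9).

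Nearby protein-coding promoters moved with this difference. Among genes whose window overlapped a protein-coding promoter window, 28 of 79 free-standing genes (35.4%, 25.8 to 46.4) and 12 of 65 intronic genes (18.5%, 10.9 to 29.6) held a summit. Among genes clear of such windows the counts were 13 of 107 (12.1%, 7.24 to 19.7) and 13 of 121 (10.7%, 6.39 to 17.5), a difference of −1.41 points (−10.1 to 6.96). By kind, the difference was −12.5 points (−21.97 to −3.09) among snoRNA genes and −0.627 points (−14.0 to 15.6) among snRNA genes. Neither small difference kept its sign in both replicates, since the highest peaks of replicate 2 gave 2.15 points (−11.8 to 18.8) for snRNA genes and those of replicate 1 gave 2.22 points (−6.13 to 10.3) for genes clear of promoter windows. The part of promoter overlap in the difference was not tested. The snRNA genes clear of promoter windows held a summit in 3 of 86 cases (3.49%, 1.19 to 9.76), namely sls-2.2, sup-6 and R07E5.16, chosen for mention after their values were seen.

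In both classes the 100 bp just upstream held the most summits of any bin. In the 100 bp upstream of the 5′ end, 24 of 186 free-standing genes (12.9%, 8.83 to 18.5) and 18 of 186 intronic genes (9.68%, 6.21 to 14.8) had an IDR summit. No other 100-bp bin within 1000 bp held more than 6 summits in either class. The highest peaks of replicate 1 placed 25 and 18 genes there and those of replicate 2 placed 23 and 15. Among the 25 intronic genes with a summit in the window the median position was 30 bp upstream of the gene, and 16 strongest summits lay 1 to 100 bp upstream. For 17 of the 25 the strongest summit lay in no protein-coding promoter window, and for 8 it lay in one, mostly that of a neighbouring gene. The remaining summits were spread out. Counted per gene, 24 of the 60 summits within 1000 bp of a free-standing gene's 5′ end and 18 of the 53 of an intronic gene lay in that bin, and 36 and 35 lay elsewhere. Intronic genes had 12 between 700 and 501 bp upstream and free-standing genes had 2, a difference that was not tested.

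**Figure D3:**
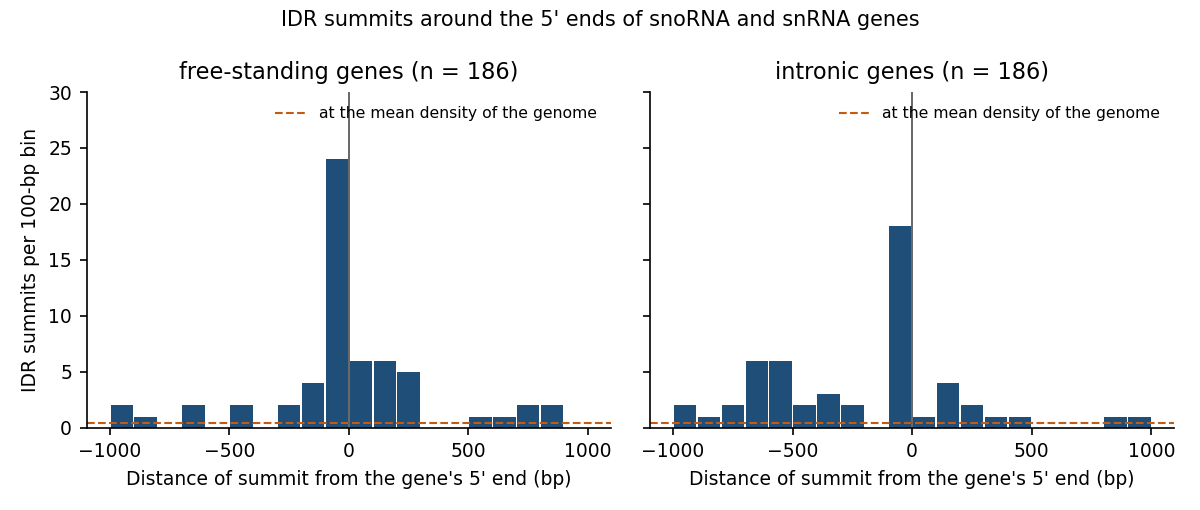
Number of IDR summits per 100-bp bin by distance from the 5′ end of the gene (negative is upstream), for 186 free-standing genes (left) and 186 intronic genes (right). The dashed line is the number that the mean summit density of the genome gives. The tallest bin of both panels is the 100 bp just upstream, with 24 and 18 summits.

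Among the free-standing genes 3 of the 4 highest peaks lay at SL2 genes. The gene sls-2.4 on chromosome I had a peak signal of 603 in replicate 1 and 529 in replicate 2, and its IDR peak of 1151 lay 36 bp upstream of the gene and in the promoter window of egg-5. The peak of sls-2.1 had 518 and 414 in the replicates and 942 on the IDR list. Its summit lay 42 bp upstream of the gene and in the promoter window of H41C03.3. The peak of sls-2.2 had 403 and 377 in the replicates and 783 on the IDR list, 27 bp upstream and in no promoter window. These 3 genes begin with the same 22 bases, which are the first capitals in the printed sequences of sls-2.1 and sls-2.2.

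The remaining gene with this start, sls-2.3, is on the other strand near sls-2.2 and had no summit in its window in any of the 4 lists. Over the 100 bases upstream, compared base by base without gaps, sls-2.1 shares 79 bases with sls-2.2 and 70 with sls-2.3. The gene sls-2.2 shares 65 with sls-2.3, and sls-2.4 shares 62 with sls-2.1. So sls-2.3 is not the one least like the others in this stretch, although it alone held no summit. The genes sls-2.2, sls-2.3 and sls-2.4 each have a near-identical copy among the 475 genes. Reads inside these genes may thus not be assigned to one of them, and the authors' treatment of such reads is not stated.

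The remaining SL2 genes were lower. The gene sls-2.8 had 235 and 196 in the replicates and 435 on the IDR list, with a summit 6 bp inside the gene. That summit lay in the promoter windows of Y75B8A.23 and tim-1. The gene sls-2.7 had 59.97 and 69.0 and an IDR peak of 125 that was matched in replicate 2 only. Its summit lay 219 bp downstream of its 5′ end, thus past the gene, and in the promoter window of W06D4.3. Of the 13 SL2 genes with no IDR summit, 11 held a summit in the pooled relaxed list, with pooled signals between 40.3 and 108. In all, 16 of 18 SL2 genes held a pooled summit, beside the 20% of tiles given above.

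**Figure D4:**
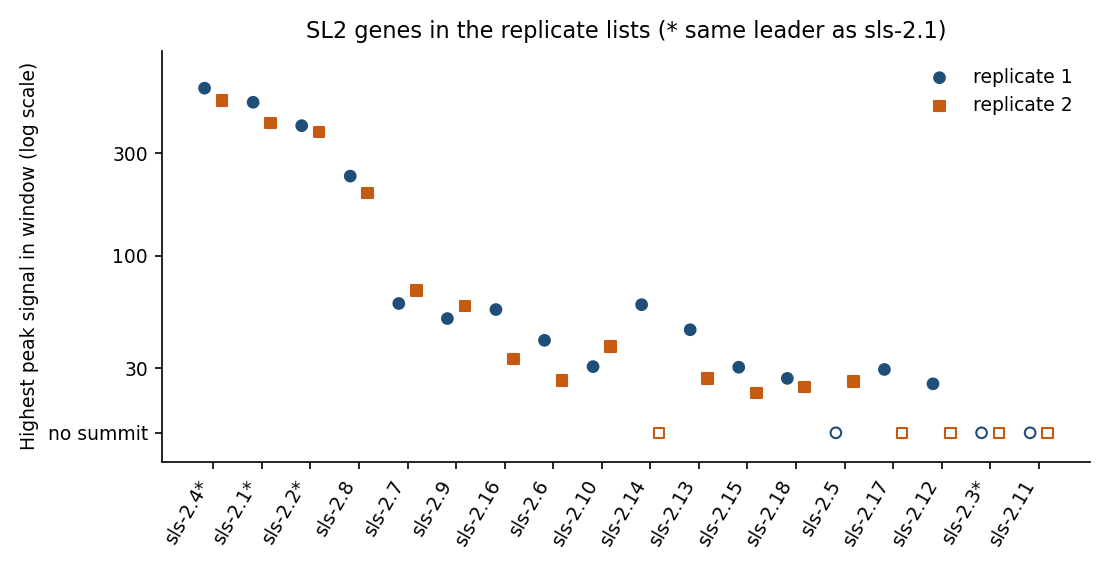
Highest peak signal in the window of each of the 18 SL2 genes in replicate 1 (circles) and replicate 2 (squares), on a log scale, ordered by pooled signal. Open symbols at the bottom mark windows with no summit in that list. Genes with an asterisk begin with the same 22 bases as sls-2.1, and 3 of these 4 lead the plot.

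SL1, the leader that most trans-spliced messages receive, showed none of this. The 12 SL1 genes lie in 1 cluster with 13 rRNA genes on chromosome V, chrV:17117854-17132407, and the 14554 bp held 0 summits in the IDR, pooled and both replicate lists. At the mean density of the pooled list 4.35 summits would fall in that length. All 12 SL1 genes have a near-identical copy, so a repeat region without assignable reads and a region without binding cannot be told apart from these lists.

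Among the other snRNA genes, T11F9.15 (WBGene00014291) had 421 and 363 in the replicates and 783 on the IDR list, with the summit 25 bp upstream. The same summit lies in the promoter window of snr-4, which encodes a core Sm protein of the spliceosomal snRNPs. The other 4 genes of its sequence family had no IDR summit. All 5 genes of this family have a near-identical copy, so for these 4 a lack of assignable reads and a lack of binding cannot be told apart. The gene R07E5.16 (WBGene00014543), in an intron of the dynein heavy chain gene dhc-4, had 355 and 281 in the replicates and 647 on the IDR list, 18 bp upstream. It belongs to a family of 22 related snRNA genes of about 102 bp, 21 of them with a near-identical copy, of which only it and F54D8.7 (WBGene00195000) had an IDR summit. F54D8.7 is free-standing and had 187 and 170 in the replicates and 359 on the IDR list, 69 bp upstream. That summit lay in the promoter window of cox-6A.

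The gene sup-6, known from genetics as a U1 snRNA gene whose mutations change splice site use, lies in an intron of F58G1.7. It had 311 and 240 in the replicates and 551 on the IDR list, with the summit 6 bp upstream and in no protein-coding promoter window. Its family of 14 entries had 4 with an IDR summit, namely sup-6, sup-39, the entry mir-1831 that lies within sup-39, and T08G5.11 (182), with a summit inside the gene. Near sup-39 the IDR list held 1 summit 7 bp upstream (192) and 1 past the end of the gene, in the promoter window of eif-2Bgamma (198). Replicate 1 held both (96.0 and 96.8), whereas replicate 2 held a single summit, 33 bp inside the gene (97.98). A family of 19 genes of about 187 bp had no IDR summit at all, and 4 of its genes held a pooled summit, beside 20% of tiles. In this family 18 genes have a near-identical copy, so a lack of assignable reads and a lack of binding cannot be told apart. Of the 12 genes of about 122 bp, 2 had an IDR summit, F38E11.11 with 166 and 198 in the replicates and F32B5.9 with 74.98 and 84.9. The summit of F38E11.11 lay in the promoter window of F38E11.9. The members of a family share most of their sequence, and 101 of the 475 genes have a near-identical copy. Left out, they leave 64 of 374 genes with a summit (17.1%).

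The strongest of the free-standing snoRNA genes had summits upstream of the gene, in several cases inside the promoter window of a neighbouring protein-coding gene. The gene W06H8.17 had 430 and 335 in the replicates and 764 on the IDR list, with its summit 196 bp upstream and in the promoter window of W06H8.6. Y53F4B.47 had 312 and 256 in the replicates and 568 on the IDR list, 79 bp upstream, in the promoter window of the cap methyltransferase gene cmtr-1. F59C6.15 had 260 and 275 in the replicates and 537 on the IDR list, 71 bp upstream and in the promoter window of F59C6.18. It is 1 of 5 related snoRNA genes of 171 to 178 bp, of which 3 had an IDR summit, at F25H2.15 with 252 and at Y67A10A.14 with 191. Y75B12B.12 had 194 and 192 in the replicates and 386 on the IDR list, 23 bp upstream. The gene lies near cyn-3, and its summit lay in the promoter window of Y75B12B.11. Y17G7B.25 had 155 and 151 and an IDR peak of 310, 135 bp upstream and in the promoter window of ippk-1. For all of these the summit was matched in both replicates. F39B2.14, which lies over an exon of tmem-107, had 295 and 277 in the replicates and 574 on the IDR list, in the promoter windows of rps-26 and tmem-107.

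The intronic genes with a summit were spread over many hosts. The 186 intronic genes lie in 159 host genes, of which 21 carry more than 1, and the 25 genes with an IDR summit lie in 23 hosts. Of these 25 genes 20 are snoRNA genes. C51F7.3, in intron 4 of frm-7, had 280 and 248 in the replicates and 523 on the IDR list, 68 bp upstream. Its neighbour C51F7.4, which overlaps an exon, shares that peak. ZK994.7, in intron 17 of the peroxidasin gene pxn-1, had 216 and 151 in the replicates and 369 on the IDR list, 25 bp upstream. Y37E3.20, in an intron of pcyt-2.1, had 206 and 157 in the replicates and 357 on the IDR list, 34 bp upstream. C08D8.3, in intron 7 of C08D8.1, had 117 and 130 in the replicates and 257 on the IDR list, 9 bp inside the gene. These summits, and that of the snRNA gene R07E5.16 in dhc-4, lay far into the host genes. Counted from the host's start they lay at 1156 bp for frm-7, 5665 bp for pxn-1, 6048 bp for pcyt-2.1, 3358 bp for C08D8.1 and 19717 bp for dhc-4.

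F54E7.10, in intron 1 of the ribosomal protein gene rps-12, was different. Its peak had 290 and 294 in the replicates and 575 on the IDR list, but the summit lay 254 bp upstream of the snoRNA gene and in the promoter window of rps-12 itself. It was the only intronic gene whose strongest summit lay in the promoter window of its host. The other hosts with a member peak were zip-2, F01D5.10, C33A12.3, cfim-2, rfs-1, Y38F2AR.12, Y43F8C.7, C15F1.5, F55A11.6, nhr-138, rol-3, unc-41, mix-1, catp-8, plpr-1 and ril-2, with IDR signals from 117 to 237.

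Introns of the same hosts served as a further background. Of 705 other introns of host genes, whose centred windows were clear of the member windows, 0.993% held an IDR summit, beside 13.4% of the intronic genes. The hosts' own promoter windows held an IDR summit in 30 of 159 cases (18.9%), beside 6.99% of all protein-coding genes. Genes inside hosts with a promoter summit were then set beside genes inside hosts without one. In the first set 1 of 45 genes held an IDR summit (2.22%, 0.393 to 11.6), and that 1 was F54E7.10, whose summit is the rps-12 promoter peak itself. In hosts without a promoter summit, 24 of 141 genes did (17.0%, 11.7 to 24.1). Counting summits outside the host's promoter window, the sets gave 0 of 45, which allows up to 6.67%, and 24 of 141. The second count could not change, because these hosts have no promoter summit by definition.

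With hosts still grouped by the IDR list, the highest peaks of replicate 1 gave 1 and 24 genes and those of replicate 2 again 1 and 24. The IDR list was made from both replicates, so these counts are no independent repeat. In the pooled relaxed list the counts were 10 of 45 and 60 of 141, beside 20% of tiles. The 30 hosts with a promoter summit included 11 of the 13 ribosomal protein hosts, the elongation and initiation factor genes eef-1G and iff-2, hsp-1, cdc-48.1, the topoisomerase gene top-2, the spliceosome gene prp-8 and nol-56, which encodes a box C/D snoRNP protein and carries 4 snoRNA genes in its introns. None of those 4 had an IDR summit, nor had the 3 in top-2 or the 3 in rpl-6. Across the 19 genes in ribosomal protein hosts 1 held a summit (5.26%, 0.935 to 24.6), beside 24 of 167 in other hosts (14.4%, 9.85 to 20.5). All 45 genes in these hosts are snoRNA genes without a near-identical copy. Restricting the other set to snoRNA genes left 19 of 105 (18.1%, 11.9 to 26.5), and restricting it to genes without a copy left 20 of 113 (17.7%, 11.8 to 25.8).

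Position along the host moved with this too. Genes in a host's first intron held an IDR summit in 2 of 43 cases (4.65%, 1.28 to 15.5) and genes in later introns in 23 of 143 (16.1%, 10.96 to 23.0). Whether the intron's position or the state of the host promoter carries the difference was not tested.

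The bases upstream of the genes were searched, on both strands of the 100 bases before the 5′ end, for letters chosen after these sequences had been seen. TGTCGG was found upstream of 77 of 475 genes (16.2%), beside 1.68% of protein-coding genes and 2.75% of all 100-base tiles of the genome. AACCCG was found upstream of 82 genes (17.3%), beside 1.61% and 1.78%. In the printed sequences both can be read upstream of sup-6 and ZK994.7, where they lie close together. TGTCGG was most common upstream of SL2 genes, 12 of 18. These letters are a description of shared sequence and not a binding site.

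Both sets of letters had been picked from upstream sequences of members with strong peaks. The shares in this paragraph are therefore a description and no independent support. Genes with AACCCG upstream held an IDR summit in 28 of 82 cases (34.1%, 24.8 to 44.9) and genes without it in 51 of 393 (13.0%). The highest peaks of replicate 1 gave 31.7% and 12.2%, and those of replicate 2 gave 35.4% and 14.0%. For TGTCGG the shares were 17 of 77 (22.1%, 14.3 to 32.5) with it and 62 of 398 (15.6%) without. The groups differed. With AACCCG the share was higher among snoRNA genes (51.4% against 14.6%) and other snRNA genes (21.2% against 4.55%) and lower among SL2 genes, with 2 of 10 genes against 3 of the 8 others. With TGTCGG it was higher among intronic snoRNA genes (54.5% against 10.1%), lower among free-standing snoRNA genes (22.2% against 26.4%) and SL2 genes (2 of 12 against 3 of the 6 others), and close to equal among other snRNA genes (3 of 30 against 7 of the 69 others). Of the genes with TGTCGG 42 and of those with AACCCG 37 have a near-identical copy, so these counts partly repeat near-identical sequences.

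Letters of tRNA-type promoter boxes marked a further set of snoRNA genes. The B box letters GTTCGANNC lay upstream of 18 genes and the A box letters, TGGC and AGTGG 2 bases apart, upstream of 14, all of them snoRNA genes, beside 0.371% and 0.0350% of protein-coding genes and 0.744% and 0.0938% of tiles. Together they marked 27 snoRNA genes, of which 15 held an IDR summit (55.6%, 37.3 to 72.4), beside 49 of the 319 other snoRNA genes (15.4%, 11.8 to 19.7). The box rules were chosen after the files were seen, so these shares are a description and no independent support. The highest peaks of replicates 1 and 2 gave 11 and 16 of the 27, and the pooled relaxed list gave 23, beside 20% of tiles. No annotated tRNA gene lies in any of these 27 windows. C51F7.3 was strongest, and the letters gttcgaccc can be read in its printed upstream sequence. The others with a summit were of low to middle signal. W03C9.9 had 143 and 111 in the replicates, C27H5.9 had 123 and 101, and Y43F8C.22, with both boxes, had 85.6 and 122.

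**Figure D5:**
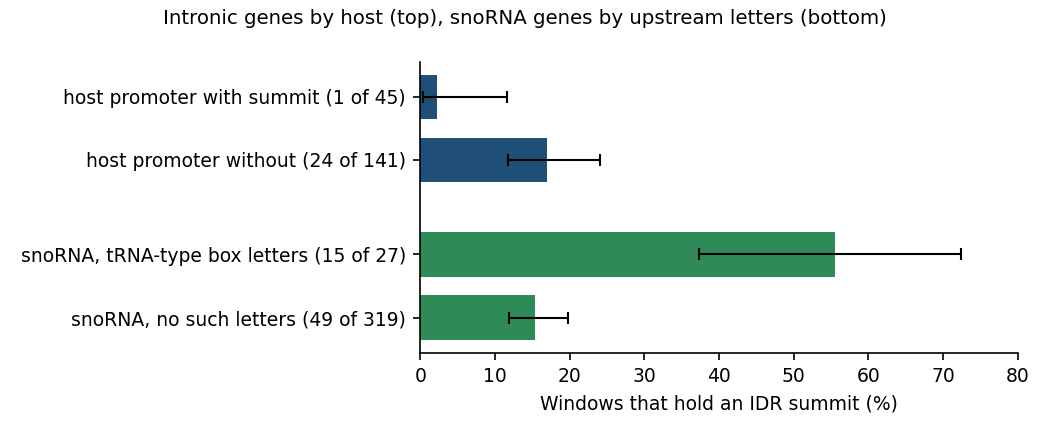
Share of windows with an IDR summit, in percent with 95% Wilson intervals. The upper bars split the intronic genes by whether the promoter window of the host holds an IDR summit (1 of 45 against 24 of 141), and the lower bars split the snoRNA genes by tRNA-type box letters in the 100 bases upstream (15 of 27 against 49 of 319). Both splits were chosen after the files were seen.

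The same letters were counted in 101 bases centred on each summit, for the 76 strongest member summits and the 2054 IDR summits outside all member windows. AACCCG and TGTCGG had been picked from upstream sequences of members with strong peaks, so their counts at these summits are a description and no independent support. AACCCG lay in 16 of 76 member windows (21.1%, 13.4 to 31.5) and in 2.43% of the others (1.85 to 3.19). TGTCGG lay in 14 (18.4%, 11.3 to 28.6) and in 2.97% of the others (2.32 to 3.796). GTCACG, letters of the core that paired domains bind, lay in 0 of 76 (Wilson interval 0 to 4.81) and in 5.55% of the others (4.64 to 6.63). These intervals overlap slightly, while the limit of 3 counts allows up to 3.95%. TAATTA, a homeodomain core, lay in 2 member windows (2.63%, 0.725 to 9.10) and in 2.97% of the others (2.32 to 3.796), and TATAAA in 7 (9.21%, 4.53 to 17.8) and in 6.23% (5.27 to 7.36), both with overlapping intervals. The absence of these letters in a window says nothing on whether the factor bound there.

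Letters of the snoRNA classes were looked for inside the genes. Box C/D letters, TGATGA with at most 1 mismatch in the first 20 bases and CTGA in the last 20, were found in 43 snoRNA genes of median length 78 bp, and 15 of them held an IDR summit (34.9%, 22.4 to 49.8). Of 87 other snoRNA genes with ACA in the last 8 bases, the H/ACA ending, with a median length of 133 bp, 14 held one (16.1%, 9.83 to 25.2). Of the 216 with neither, 35 did (16.2%, 11.9 to 21.7). The highest peaks of replicates 1 and 2 gave 12 and 17 of the 43, 14 and 14 of the 87, and 33 and 36 of the 216. Within the ACA set, 8 of 20 free-standing genes (40.0%, 21.9 to 61.3) and 4 of 57 intronic genes (7.02%, 2.76 to 16.7) held a summit, and the highest peaks of the replicates gave 8 and 7 of the 20 and 4 and 4 of the 57. The letter rules are loose, and many snoRNA genes fell under neither.

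Promoter windows of protein genes of the same particles also held IDR summits. Of 47 names on a list of small RNP genes, 40 were found in the annotation, and 13 had an IDR summit in the promoter window (32.5%, 20.1 to 47.98), beside the 6.99% of all protein-coding genes. All 3 box C/D genes found had one, with the fibrillarin gene fib-1 at 591 and 535 in the replicates, nol-58 at 149 and 138, and nol-56 at 63.3 and 116, the last matched in replicate 2 only. Both H/ACA genes found had one, Y48A6B.3 at 134 and 122 and nola-3 at 103 and 87.4. Of the 9 Sm and SMN genes, snr-4 had the peak shared with T11F9.15, snr-1 had 372 and 334, and snr-6 had 68.2 and 66.4. Most of these summits also lay in the promoter window of another gene. These were mut-15 for fib-1, zip-4 for nol-58, fipr-17 for Y48A6B.3 and C25A1.16 for nola-3. For snr-1 and snr-6 they were snx-13 and Y49E10.16. The list was chosen with earlier results of these data known, and fib-1 was among the strong peaks already seen.

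The remaining groups were mixed. The Integrator complex processes the 3′ ends of snRNAs, and 3 of its 10 genes had a promoter summit, namely ints-4 with 470 and 431 in the replicates, ints-8 with 85.5 and 87.4, and ints-1 with 80.1 and 53.1, matched in replicate 1 only. Of 3 spliced-leader particle genes sna-2 had 122 and 94.7, and of 5 genes of U1, U2 and U5 proteins prp-8 had 113 and 135. The summits of ints-1, sna-2 and prp-8 also lay in the promoter windows of rnf-1, T13F2.6 and bath-42, respectively. None of the 8 genes for SNAPc subunits and TBP, the factors that recognise snRNA promoters, had an IDR summit, and snpc-4 and snpc-3.4 held relaxed summits in both replicates (35.1 and 36.5, and 38.3 and 70.4).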

How the data were processed

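The peak signal and summit positions were used as deposited by the authors in narrowPeak lists on ce11, per the notes beside the files, with sonicated fragments of 200 to 800 bp, per the labels. For the aligner, peak caller, control, IDR threshold and treatment of reads from repeated genes: not given in the sources used here. Scripts ran in Python 3.11.15 (numpy 2.4.6, pandas 2.3.3), and figures were drawn with matplotlib 3.10.9. Copies (at least 95% identity over 90% of the length) and families (70% over 80%) were found with blastn 2.17.0. Copies were searched only among the 475 genes and not elsewhere in the genome. Chromosome names matched, and all peaks ended within the chromosome lengths of the reference.

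A gene was counted when a summit lay in its window, and its strongest summit gave its signal. Some symbols are used for several genes, so the identifier is given where needed. No p-values were computed, since there is 1 condition and genes are not replicates. Shares have 95% Wilson intervals and, for a count of 0, the limit of 3 counts. The differences have Newcombe intervals. The scoring was first tested on simulated summits.

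Members and lists were chosen with earlier results of these data known, and the upstream letters, host promoter split and box rules after the files were seen. Named members are the 20 of highest IDR signal and the 5 highest of each class, with hosts or neighbours, and every small RNP gene with a promoter summit. Others were named after their values were seen. Alternatives changed the flank, the peaks used, the overlap rule, the intron definition, the handling of copies and promoters, and the replicate (the 2139 highest peaks of the other one). The sequence of 1 snRNA gene with a strong peak is not reported here.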

Additional observations from a re-analysis of the deposited data

How the results depend on the processing

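Of the shares reported, 16.6% of all members, 18.5% of snoRNA genes and 11.6% of snRNA genes, most alternatives stayed within the 95% interval. With 1000 bp on each side the shares of all members and snoRNA genes were 24% and 27.7%, and the difference between intronic and free-standing genes was 0 points. With the 1069 IDR peaks of higher signal they were 10.7% and 10.98%, and with IDR peaks matched in both replicates 13.3% and 14.2%. Without windows that overlap a protein-coding promoter window they were 11.2% and 14.3%, and the snRNA share was 3.49%. The cause of these shifts was not tested beyond the smaller or larger set of peaks or bases that each setting uses. Leaving out either replicate gave 15.6 to 17.7% of all members, 17.1 to 19.4% of snoRNA genes, 11.6 to 13.2% of snRNA genes, a difference of −9.14 to −5.91 points and 30 to 35% of small RNP genes. It gave 23 to 25 free-standing and 15 to 18 intronic genes with a summit in the 100 bp upstream, alternatives chosen after seeing the data. The difference over all members was negative or 0 in every alternative run, while its split by kind and by promoter overlap gave values of either sign in single replicates, as reported. However, the interval of the difference over all members included 0 in most alternatives. Examples are 100 bp (−13.7 to 0.752) or 500 bp (−15.6 to 0.609) on each side, and IDR peaks matched in both replicates (−10.8 to 3.30). The interval excluded 0 without replicate 1, without genes with a near-identical copy, and with each summit counted for the nearest gene only. No paired analysis was possible because there is 1 group. The lists hold no read counts, so depth and weak binding cannot be judged from them.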
